A study of Mus musculus with 12 samples.

Results

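The loss of Bmal1 in senescent fibroblasts was examined by comparing the 3 RNA-seq libraries of KO senescent cells with the 3 libraries of WT senescent cells, which were 6 of the 12 libraries collected. The cells were primary mouse adult fibroblasts (MAFs) from the ears of C57BL6/J mice (WT) and of mice carrying a whole-body Bmal1-/- deletion (KO). Senescent cells of both genotypes had received 20 Gy of X-rays, whereas KO control and WT control cells, with 3 libraries each, had been sham irradiated and served as a second view of the genotype difference. All 4 groups received 100 nM dexamethasone, a synthetic glucocorticoid used to align the clocks of cultured cells, and were collected 12 h later, so each value describes 1 time of the cycle. Of 49315 gene identifiers counted, 17416 passed the filter on low counts and were compared. The sources do not state whether the replicates were separate cultures or animals, and p-values then measure the spread between these libraries, which may be technical.

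BMAL1, encoded by Arntl, pairs with CLOCK and binds E-box sequences to switch on the Per, Cry and Nr1d genes. PER and CRY proteins then repress the pair, and the NR1D proteins (REV-ERB alpha and beta) repress Arntl and other genes through the response elements that ROR proteins also use. Senescent fibroblasts have left the cell cycle for good and secrete cytokines, growth factors, proteases and matrix proteins, known together as the senescence-associated secretory phenotype (SASP). AP-1, a family of dimers of JUN, FOS, MAF and ATF proteins, is a known regulator of that secretion, and the study asked whether BMAL1 takes part in it.

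Total counts were 24341776 to 28185412 in the 6 senescent libraries. Levels are given as CPM, the count of a gene scaled to a fixed library total after TMM normalisation, in replicate order. Changes are log2 fold changes, KO against WT, with their standard error, and every adjusted p comes from edgeR's quasi-likelihood test over all genes tested. A gene passed where its adjusted p was under 0.05 and is termed a DEG where its log2 fold change was also over 1 in size. Principal component 1 of the senescent libraries held 50.8% of the variance and separated the genotypes, with WT libraries at 26.5 to 32.8 and KO libraries at -23.8, -26.6 and -40.8. KO replicate 3 lay farthest out.

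In KO senescent cells 2080 genes rose (11.9% of those tested) and 2050 fell (11.8%). With offsets for GC content and length the split was 2830 higher and 1799 lower. DEGs were fewer and mostly lower, with 224 higher (1.29%) and 381 lower (2.19%). Most changes were small, and the median size among genes that passed was 0.40 on the log2 scale. The median over all genes tested was -0.017. Of the DEGs, 198 of the higher and 311 of the lower were annotated as protein coding.

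Most repressors of the clock rose and both REV-ERB genes fell in KO senescent cells. Of 28 clock genes tested, 9 rose (32.1%, against 11.9% of all genes tested), 5 fell (17.9%, against 11.8%) and 14 did not pass. Cry1, a repressor of BMAL1 and CLOCK, was at 57.2, 52.9 and 57.9 CPM in KO senescent libraries and at 10.5, 9.66 and 9.11 CPM in WT senescent libraries, a log2 fold change of 2.52 ± 0.085 (adjusted p = 4.75e-14). The lowest KO library was thus far above the highest WT library. Per2, its partner, was at 17.2, 16.7 and 15.1 CPM in KO and 4.32, 4.68 and 3.51 CPM in WT cells (1.96 ± 0.13, adjusted p = 2.03e-09). Npas2, which can stand in for CLOCK, was at 12.1, 15.3 and 11.4 CPM in KO and 4.59, 4.01 and 4.32 CPM in WT cells (1.59 ± 0.14, adjusted p = 7.45e-08). These 3 genes were the clock DEGs that rose. Cry2 rose by less, from 33.8, 34.9 and 35.5 CPM in WT to 67.3, 63.3 and 66.8 CPM in KO cells (0.92 ± 0.079, adjusted p = 4.46e-08), as did Ciart, a repressor of the pair (0.66 ± 0.18, adjusted p = 0.00956). Ciart was at 0.56 without KO senescent replicate 1 and did not pass (adjusted p = 0.0513).

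**Figure D1:**
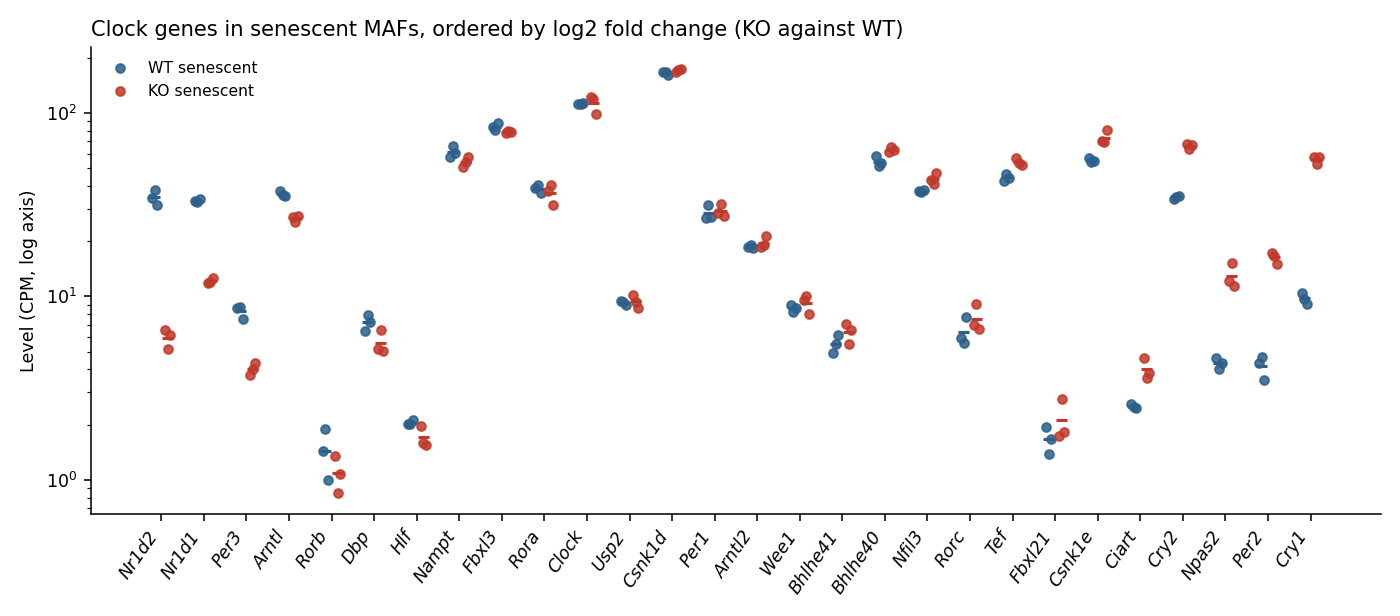
Levels of 28 clock genes (CPM, log axis) in the 3 WT senescent libraries (blue points) and the 3 KO senescent libraries (red points), with bars at the group means and genes ordered by log2 fold change. Nr1d2 and Nr1d1 at the left end lie lower in KO cells and Npas2, Per2 and Cry1 at the right end lie higher. Each of them shows no overlap between genotypes, as do 41.9% of all genes tested. Clock at 98.4 to 122 CPM and Csnk1d show little separation.

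Nr1d2 was the clock gene that fell most. It was at 6.56, 5.18 and 6.15 CPM in KO and 34.6, 38.1 and 31.4 CPM in WT senescent libraries, a change of -2.54 ± 0.099 (adjusted p = 4.29e-13). Nr1d1 was at 11.8, 11.9 and 12.5 CPM in KO and 33.1, 32.6 and 33.8 CPM in WT libraries (-1.45 ± 0.098, adjusted p = 1.71e-09). Per3 was the third DEG that fell, at 3.71, 4.04 and 4.36 CPM in KO and 8.68, 8.72 and 7.49 CPM in WT libraries (-1.04 ± 0.16, adjusted p = 8.44e-05). Without KO senescent replicate 1 the change of Per3 was -0.98, and with GC and length offsets it was -0.96, below the size of a DEG. Among output and accessory genes, Tef rose (0.28 ± 0.072), Csnk1e, a kinase of PER proteins, rose (0.41 ± 0.063) and Csnk1d, a related kinase, did not pass. Bhlhe40, Nfil3 and Nampt passed narrowly at 0.21, 0.22 and -0.18. Bhlhe40 lost the call without KO replicate 2 or WT replicate 2 or 3 (0.17 to 0.21), Nfil3 without KO replicate 3 or any WT replicate (0.16 to 0.23), and Nampt without KO replicate 1 or 2 or WT replicate 2 or 3 (-0.19 to -0.12). Nampt also did not pass by DESeq2, with DESeq2 size factors, with only the senescent libraries in the fit, with a minimum mean of 1 CPM or with GC and length offsets (-0.17 to -0.13). The output genes Dbp, Hlf and Usp2 and the core genes Clock, Per1 and Rora had changes of -0.36, -0.27, 0.024, 0.015, 0.051 and -0.08, and none of them passed.

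Arntl RNA itself (ENSMUSG00000055116, GRCm38 chromosome 7, 113207465 to 113314126) was still counted in KO cells. It was at 27, 25.3 and 27.5 CPM in KO senescent and 37.4, 35.8 and 35.2 CPM in WT senescent libraries, a change of -0.44 ± 0.08 (adjusted p = 0.000329). In control cells it was at 15.2, 11.8 and 12.5 CPM in KO and 29.8, 31.6 and 33.2 CPM in WT libraries (-1.26, adjusted p = 2e-09). The genotype difference was smaller in senescent cells by 0.82 (interaction, adjusted p = 7.58e-05). Gene-level counts pool all exons, and the sources used here do not give which exons the deletion removed, so they do not check the loss of the protein. The study itself reported that its KO cells had lost Bmal1 RNA.

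The clock pattern was also present in control cells. There Cry1, Per2 and Npas2 were higher by 2.26, 3.04 and 1.79, and Nr1d1 and Nr1d2 were lower (-2.12 and -1.98). The interaction, which is the senescent difference less the control one, was -1.08 for Per2 (adjusted p = 0.0011), 0.67 for Nr1d1 (adjusted p = 0.00344) and -0.57 for Nr1d2 (adjusted p = 0.00703). Per2 and Nr1d1 therefore differed less between genotypes in senescent than in control cells, and Nr1d2 differed more. Per3 was changed by -0.056 in control cells, where it did not pass, and its interaction was -0.98 (adjusted p = 0.00544). Dbp was higher in KO control cells (0.74, adjusted p = 0.0353) and did not pass in senescent cells, with an interaction of -1.11 (adjusted p = 0.0142).

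Promoters of clock genes were read from RefSeq on GRCm38.p6, as the 250 bases before each start. The E-box CACGTG, which is its own reverse complement, was found in 5 of the 22 clock genes with a promoter entry (22.7%), in 9.37% of all genes tested with an entry and in 6.86% of all genes with an entry. The median GC content of the window was 68% for the clock genes and 59.6% over all genes tested. Mean windows per gene were 1.41 and 1.28, and a gene counted where any window held the motif. The part of these differences in the share was not tested. Per2 had no entry. Of the 5, Cry1, Ciart and Tef rose, while Per1 and Bhlhe41 had changes of 0.051 and 0.21 and did not pass. The windows of Cry1 and Ciart are shown because of these 5 genes they rose most, and they hold the E-box 60 bases before the start in Cry1 and 116, 58 and 44 bases before it in Ciart. Those of Nr1d1 and Nr1d2, the 2 clock genes that fell most, are shown beside them and hold no CACGTG, which says only that these letters are absent from the window. Capitals mark the E-box, and all 4 sequences run 5′ to 3′ on the gene's strand.
Cry1 (chr10:85185055-85185304, minus strand): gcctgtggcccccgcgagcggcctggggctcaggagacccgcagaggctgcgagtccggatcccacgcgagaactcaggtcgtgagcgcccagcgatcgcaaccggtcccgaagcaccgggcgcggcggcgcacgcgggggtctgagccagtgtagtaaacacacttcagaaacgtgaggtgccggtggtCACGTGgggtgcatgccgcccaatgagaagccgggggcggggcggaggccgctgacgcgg
Ciart (chr3:95882229-95882478, minus strand): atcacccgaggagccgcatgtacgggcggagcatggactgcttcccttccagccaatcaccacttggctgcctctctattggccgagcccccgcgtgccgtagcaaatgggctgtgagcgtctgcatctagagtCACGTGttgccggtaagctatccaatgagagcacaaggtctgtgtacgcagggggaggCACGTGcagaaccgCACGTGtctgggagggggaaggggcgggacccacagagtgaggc
Nr1d1 (chr11:98775378-98775627, minus strand): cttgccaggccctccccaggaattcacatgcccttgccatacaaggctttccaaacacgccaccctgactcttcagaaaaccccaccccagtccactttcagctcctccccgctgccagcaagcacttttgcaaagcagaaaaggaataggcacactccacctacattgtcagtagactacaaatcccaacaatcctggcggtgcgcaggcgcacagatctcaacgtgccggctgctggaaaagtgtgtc
Nr1d2 (chr14:18239107-18239356, minus strand): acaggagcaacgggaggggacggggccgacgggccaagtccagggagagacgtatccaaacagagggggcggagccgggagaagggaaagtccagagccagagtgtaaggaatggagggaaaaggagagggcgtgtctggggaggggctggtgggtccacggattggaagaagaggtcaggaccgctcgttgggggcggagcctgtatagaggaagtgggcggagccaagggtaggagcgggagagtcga

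The comparison with control cells asked how much of the genotype difference was shared by both cell states. In control cells 2269 genes passed (13%), 1405 higher and 864 lower. DEGs there were 442 (2.54%), 237 higher and 205 lower. The count lower was 542 without WT control replicate 3 and 86 to 118 without WT control replicate 1 or 2 or KO control replicate 2 or 3. Of the 224 DEGs higher in KO senescent cells, 160 had the same sign in control cells (71.4%) and 63 were DEGs there with the same sign (28.1%). Of the 381 DEGs lower in KO senescent cells, 238 had the same sign (62.5%) and 36 were DEGs there (9.45%). Across all genes tested the correlation of the senescent and control changes was 0.20 (Pearson's r, a description across genes, which are not independent replicates). By the interaction test 3639 genes passed (20.9%) and 637 were DEGs (3.66%). Among the DEGs of senescent cells the interaction passed for 80 higher (35.7%) and 232 lower genes (60.9%). These DEGs were chosen on libraries that the interaction also uses, so the shares are descriptions.

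**Figure D2:**
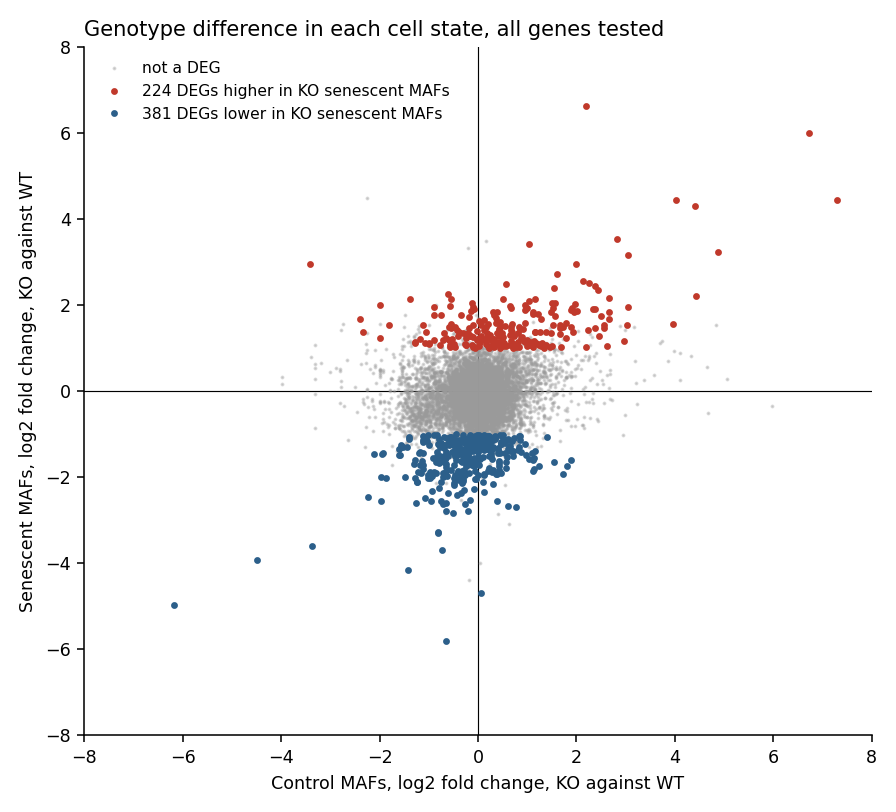
Log2 fold change of KO against WT in senescent MAFs (vertical axis) against that in control MAFs (horizontal axis) for the 17416 genes tested. The 224 DEGs higher in KO senescent cells (red) and the 381 lower (blue) scatter on both sides of no change in control cells, with 160 and 238 of them on the side of the same sign.

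The DEGs with the largest changes, taken where the senescent mean reached 5 CPM and the genotypes did not overlap, held clock, signalling and cartilage genes. Beside Cry1 and Per2, the 12 that rose most included secreted signals. Dkk2, a WNT antagonist (GRCm38 chromosome 3, 132085292 to 132180304), was at 21.6, 15.5 and 24.4 CPM in KO and 6.16, 4.78 and 4.98 CPM in WT libraries, and Wnt5b, a WNT ligand, was at 13.3, 12.8 and 15.1 CPM and 3.23, 3.37 and 4.24 CPM. Spon2, a matrix protein of the spondin family, was at 9.96, 7.41 and 8.68 CPM in KO and 1.67, 1.28 and 2.12 CPM in WT libraries. Their changes were 1.95 ± 0.18, 1.93 ± 0.13 and 2.37 ± 0.18 (adjusted p = 6.34e-07, 1.36e-09 and 8.5e-09). That the levels of these 3 genes did not overlap between genotypes was required by the way they were chosen. Dkk2 and Spon2 rose in control cells too (1.92 and 2.45), while Wnt5b rose less there (0.99, interaction 0.94, adjusted p = 0.000715).

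Others of the 12 code for proteins of the cell surface, the cytoskeleton and mitochondria. Nrcam, a cell adhesion molecule (GRCm38 chromosome 12, 44328885 to 44601964), was at 55.7, 43.5 and 66.3 CPM in KO and 17.3, 15 and 12.8 CPM in WT libraries (1.87 ± 0.14, adjusted p = 2e-07). In control cells its change was -0.15 and did not pass, and the interaction was 2.02 (adjusted p = 7.39e-05). Stmn2, a microtubule regulator, rose by 2.09 ± 0.20, and Gldn, gliomedin, by 1.87 ± 0.19. Stmn2 was at 19.7, 17.8 and 28.8 CPM in KO libraries and at 5.54, 5.46 and 4.51 CPM in WT libraries. Ucp2, a carrier of the inner mitochondrial membrane, was at 31.9, 31.4 and 32 CPM in KO and 9.32, 7.31 and 8.61 CPM in WT libraries (1.92 ± 0.086, adjusted p = 3.79e-12) and rose by 2.38 in control cells.

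Another 2 of the 12 have near-identical copies, and reads that map to several places were not counted, so their values are uncertain. The pseudogene Rps13-ps1 was at 16.1, 20.0 and 19.2 CPM in KO and 0.238, 0.236 and 0.386 CPM in WT libraries, and Gm47283 on chromosome Y was at 9.11, 6.42 and 10.3 CPM and 2.48, 1.92 and 1.85 CPM. Both also differed in control cells (6.74 against 6.01 for Rps13-ps1, and 1.96 against 2.04 for Gm47283). The same limit holds for mt-Nd3 and mt-Co3, mitochondrial genes listed with changes of 3.55 and 1.39 at mean levels of 3.76 and 3.73 CPM.

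Among the 12 DEGs that fell most, Cnmd, Col9a1 and Col27a1 belong to cartilage. Fgg, the gamma chain of fibrinogen (GRCm38 chromosome 3, 83007724 to 83015049), was at 1.58, 1.24 and 0.675 CPM in KO and 10.1, 12.4 and 11.6 CPM in WT libraries (-3.29 ± 0.23, adjusted p = 3.73e-09). Mest, an imprinted gene of growth (GRCm38 chromosome 6, 30723547 to 30748465), was at 27, 39.6 and 19.9 CPM in KO and 151, 179.6 and 172 CPM in WT libraries (-2.54 ± 0.30, adjusted p = 0.000387). Faah, the enzyme that degrades anandamide, and Ppp1r1b, the phosphatase inhibitor DARPP-32, changed by -2.37 ± 0.25 and -2.63 ± 0.35. Cdh19, a cadherin of Schwann cell precursors, Myoc, the secreted protein myocilin, Fxyd3, a regulator of the sodium pump, and Rab11fip4, a Rab11 effector, completed the set with Nr1d2, and their changes were -2.29, -2.12, -2.12 and -2.08. The interaction passed for each of the 12 and was negative, from -2.48 for Fgg to -0.57 for Nr1d2. These genes were chosen by their fall in senescent libraries that the interaction also uses, so this is a description.

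**Figure D3:**
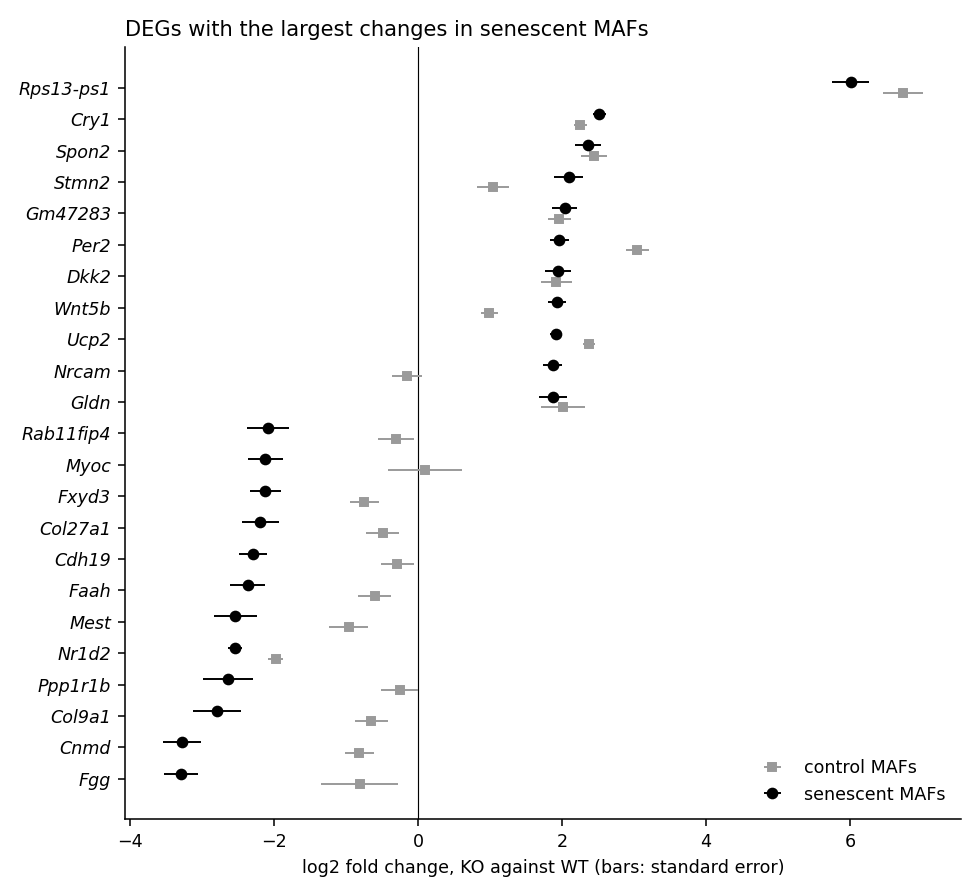
Log2 fold change of KO against WT with its standard error for 11 of the 12 DEGs that rose most and the 12 that fell most, in senescent MAFs (black circles) and control MAFs (grey squares). Among the genes that fell, the control values lie nearer to no change than the senescent ones, and among those that rose, all but Stmn2, Wnt5b and Nrcam lie at 1.92 or above in control cells too. The genes were chosen by the size of their senescent change, which favours smaller control values.

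Cartilage genes had the lowest median of the lists other than the cell type markers. Of 26 tested members, 18 fell, 17 of them as DEGs, 1 rose (Prg4, lubricin, 0.23, lost when any library but WT replicate 2 was left out) and 7 did not pass, with a median change of -1.30. Cnmd, chondromodulin (GRCm38 chromosome 14, 79637690 to 79662170), was at 6.79, 5.57 and 5.03 CPM in KO and 54.2, 53.9 and 60.0 CPM in WT libraries (-3.28 ± 0.27, adjusted p = 3.87e-05). Col2a1, the main collagen of cartilage, was at 459, 467 and 417 CPM in KO and 1263, 1364 and 1509 CPM in WT libraries (-1.62 ± 0.13, adjusted p = 1.01e-05). Acan, the proteoglycan aggrecan, was at 153, 159 and 128 CPM and 423, 418 and 449.8 CPM (-1.55 ± 0.11, adjusted p = 1.49e-06). In each of the 3 genes WT libraries lay above KO libraries without overlap, and 41.9% of all genes tested had no overlap in either direction. The link protein Hapln1 changed by -1.47 ± 0.18, Col9a1 by -2.79 ± 0.33, and the fibrillar collagens Col11a1 and Col11a2 by -1.33 ± 0.18 and -2.06 ± 0.24. The transcription factors that direct chondrocyte differentiation fell too. Sox9 was at 91.8, 99.8 and 81.9 CPM in KO and 199.9, 221 and 237 CPM in WT libraries (-1.27 ± 0.089, adjusted p = 1.42e-07), Sox5 changed by -1.25 ± 0.17 and Sox6 by -1.11 ± 0.17. Runx2 (-0.14), Runx3 (-0.28) and Ihh (-0.23), which act in later chondrocyte maturation, did not pass, though Runx2 did without KO replicate 2 (-0.19, adjusted p = 0.0388).

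In control cells 3 of these 26 genes passed lower and 2 higher, with a median of -0.19, and the interaction passed for 18, all negative. Col2a1 had an interaction of -0.91 (adjusted p = 0.00504), Acan of -1.57 (adjusted p = 5.12e-05) and Sox9 of -1.38 (adjusted p = 7.73e-06). All 8 chondrocyte markers (Col2a1, Acan, Col9a1, Col11a1, Matn3, Hapln1, Cnmd and Comp) were DEGs that fell, and their summed level was 846 to 1040 CPM in KO and 2570 to 2980 CPM in WT senescent libraries. In such bulk samples fewer cells of a type and less RNA per cell cannot be told apart. Leaving out any senescent library, or with DESeq2 or another scaling, filter, offset or block, 18 or 19 members fell. The count under glmTreat was not made.

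The small leucine-rich proteoglycans, which bind collagen fibrils, were lower too. Of 10 tested, 7 fell and none rose, with a median of -0.81. Ogn, osteoglycin, was at 92, 127 and 82.2 CPM in KO and 363, 448 and 411 CPM in WT libraries (-2.02 ± 0.22, adjusted p = 0.000218). Aspn, asporin, was at 113, 137 and 95.6 CPM and 242, 265 and 252 CPM (-1.14 ± 0.19, adjusted p = 0.00244). Omd, Ecm2 and Lum, lumican, were the other DEGs (-1.39, -1.27 and -1.06). Lum changed by -0.95 without KO senescent replicate 3, which is below the size of a DEG. Fmod and Prelp fell by less (-0.55 and -0.32). Fmod did not pass when any library but KO replicate 2 was left out, nor did Prelp without KO replicate 1 or WT replicate 2. Dcn and Bgn, decorin and biglycan, had changes of -0.14 and 0.011 and did not pass. In control cells 2 of the 10 passed, both higher, and the interaction passed for 7, each negative.

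**Figure D4:**
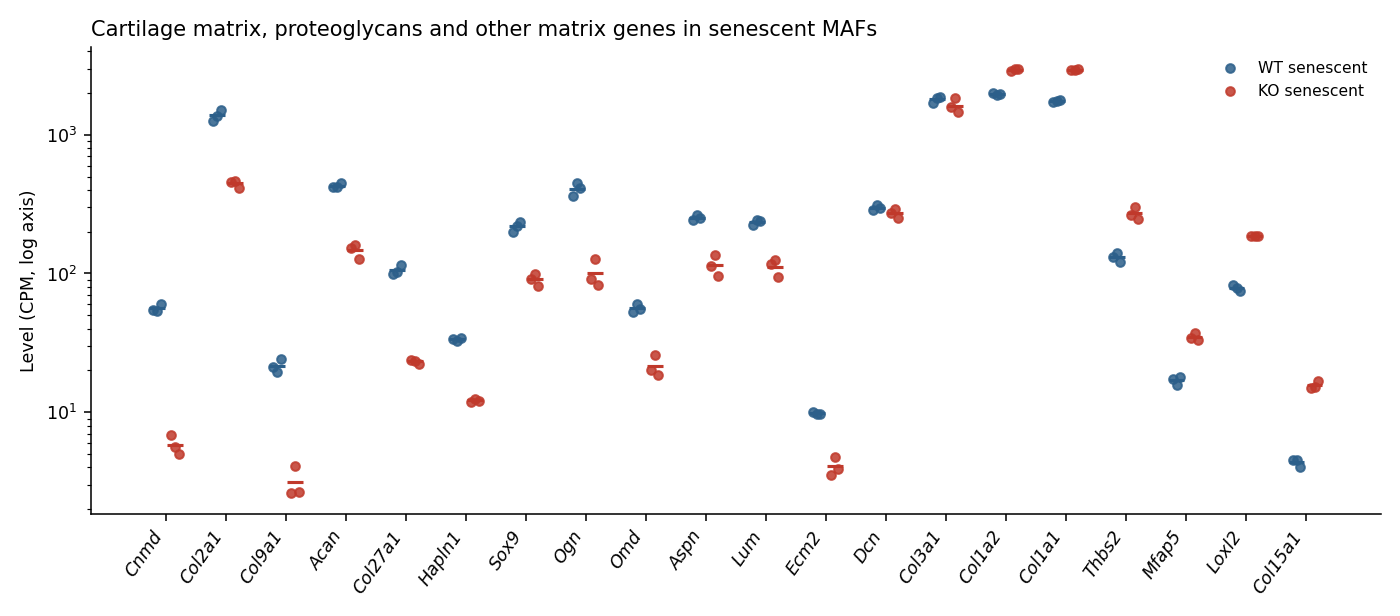
Levels of 20 matrix genes (CPM, log axis) in the 3 WT senescent (blue points) and 3 KO senescent libraries (red points), with bars at the group means. Cartilage genes and proteoglycans from Cnmd to Ecm2 lie lower in KO cells, Dcn and Col3a1 overlap or nearly so, and the genes from Col1a2 to Col15a1 lie higher in KO cells.

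Some other matrix genes rose. Col1a1, the main collagen of fibroblasts, was at 2935, 2950 and 2979 CPM in KO and 1726, 1739 and 1787 CPM in WT libraries (0.76 ± 0.042, adjusted p = 1.11e-10), and Col1a2 rose by 0.58 ± 0.045 and Col5a1 by 0.70 ± 0.045. Col15a1, a basement membrane collagen, was at 14.9, 15.2 and 16.8 CPM in KO and 4.49, 4.55 and 4.01 CPM in WT libraries (1.84 ± 0.11, adjusted p = 3.52e-10). Of 23 collagens outside the cartilage list 9 rose and 6 fell (39.1% and 26.1%, against 11.9% and 11.8% of all genes tested), with a median of -0.090. Those that fell included the DEGs Col14a1 (-1.62) and Col4a6 (-1.63). Type I collagen was also higher in KO control cells (0.35 and 0.50), and the interaction of Col1a1 was 0.41 (adjusted p = 7.81e-05).

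Among 21 elastic fibre genes 5 rose and 10 fell (23.8% and 47.6%, against 11.9% and 11.8% of all genes tested). Loxl2, a lysyl oxidase that cross-links matrix, was at 185, 186 and 186 CPM in KO and 82.7, 78.5 and 75 CPM in WT libraries (1.24 ± 0.052, adjusted p = 1.42e-12). Its change in control cells was 0.19, and the interaction was 1.05 (adjusted p = 2.65e-08). Mfap5 rose by 1.03 ± 0.081, whereas the fibulins Fbln5 and Efemp1 fell (-0.54 ± 0.064 and -0.55 ± 0.055). Of 19 matricellular genes, which code for matrix proteins that signal to cells, 10 rose and 3 fell (52.6% and 15.8%, against 11.9% and 11.8%). Thbs2, thrombospondin, was at 266, 303 and 247 CPM in KO and 132, 139 and 121 CPM in WT libraries (1.06 ± 0.075), and Tnc, tenascin C, and Ccn4, a WNT target, rose by 0.56 ± 0.055 and 0.80 ± 0.059. Of 13 contractile genes 9 rose and none fell, with a median of 0.32. Acta2, smooth muscle actin, was at 1370, 1450 and 1481 CPM in KO and 1078, 1029 and 1036 CPM in WT libraries (0.45 ± 0.058, adjusted p = 8.15e-06). Tagln and Lmod1 rose by 0.53 and 0.53, and Actg2 was the DEG of the list (1.07). In control cells 7 of the 13 were higher.

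Cell cycle genes were lower in KO senescent cells by small amounts. Of 39 tested, 29 fell, none as a DEG, 1 rose (Ccne1, 0.27) and 9 did not pass, with a median of -0.55. All 13 genes of mitosis fell, and 8 of 13 genes of S phase did. Kif20a, a mitotic kinesin, was at 15.9, 15.2 and 13.3 CPM in KO and 25, 27.9 and 26.5 CPM in WT libraries (-0.84 ± 0.13, adjusted p = 0.00047). Mki67, the proliferation marker, fell (-0.79 ± 0.22), and the replication helicase subunits Mcm3, Mcm5 and Mcm6 fell (-0.43, -0.55 and -0.45). Pcna (-0.0073) did not pass. In control cells 2 of the 39 passed, both lower. Without KO senescent replicate 3 the count that fell was 19, and without WT senescent replicate 3 it was 18. Ccne1 did not pass without KO replicate 3 or any 1 of the WT replicates (0.21 to 0.29), nor did Mki67 without KO replicate 2 or any 1 of the WT replicates (-0.85 to -0.78).

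The inhibitors of the cyclin-dependent kinases were split. Cdkn2a, whose transcripts code for p16INK4a and ARF, was at 7.1, 8.65 and 12.5 CPM in KO and 2.79, 3.77 and 3.01 CPM in WT libraries (1.56 ± 0.22, adjusted p = 3.05e-05), with an interaction of 1.36 (adjusted p = 0.00473). KO replicate 3 was the highest of the 6. Cdkn2b, p15INK4b, was at 23.5, 25.3 and 27.2 CPM and 12.9, 12.7 and 11.2 CPM (1.05 ± 0.12, adjusted p = 3e-06). Cdkn1b, p27, Cdkn2c, p18, and Cdkn2d, p19, fell (-0.59 ± 0.06, -0.52 ± 0.058 and -0.44 ± 0.12), though Cdkn2d did not pass without KO replicate 1 (-0.32, adjusted p = 0.0525). Cdkn1a, p21, was at 638, 705 and 705 CPM in KO and 604, 619 and 643 CPM in WT libraries and did not pass (0.13 ± 0.062, adjusted p = 0.125), though it passed without KO replicate 1 (0.18, adjusted p = 0.0484). Of 18 targets of p53, 3 rose and 3 fell (16.7% each, against 11.9% and 11.8% of all genes tested), with a median of 0.022. The 6 lay between -0.39 and 0.32. None of the 3 that rose passed without KO replicate 3 or without any 1 of the WT replicates, and 1 or none of those that fell passed without KO replicate 1 or 3 or WT replicate 2.

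SASP genes moved in both directions. Of 13 chemokines tested 3 rose and 5 fell (23.1% and 38.5%, against 11.9% and 11.8% of all genes tested), while 6 of the 19 on the list were too low to test. Cxcl12, a chemoattractant of stem and immune cells, was at 278, 289 and 242 CPM in KO and 464, 447 and 483 CPM in WT libraries (-0.78 ± 0.058, adjusted p = 5.84e-09). The neutrophil attractant Cxcl5 was at 40.5, 43.5 and 34.2 CPM and 68.2, 61.5 and 62.5 CPM (-0.70 ± 0.11, adjusted p = 0.000389), and Cxcl1, of the same kind, fell (-0.87 ± 0.18). Ccl9 was the DEG that fell (-1.06 ± 0.095). The monocyte attractants Ccl2, Ccl7 and Ccl8 rose, by 0.85 ± 0.16, 0.96 ± 0.11 and 1.86 ± 0.55. Ccl7 was at 16.1, 17.1 and 15.7 CPM in KO and 9.15, 7.71 and 8.26 CPM in WT libraries. Ccl8 did not pass without KO replicate 3 (1.27, adjusted p = 0.184) or WT replicate 2 (1.67, adjusted p = 0.0846). CXC members were thus lower or did not pass, and the genes that rose were all CC members. The split was not clean, as of 6 CC and CX3C members tested 3 rose and 2 fell.

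Of 14 cytokines 2 rose and 3 fell (14.3% and 21.4%, against 11.9% and 11.8% of all genes tested). Il1rn, which codes for the antagonist of interleukin 1, was at 7.18, 7.52 and 5.44 CPM in KO and 17.9, 19.3 and 17.3 CPM in WT senescent libraries (-1.44 ± 0.14, adjusted p = 8.12e-07). In control cells it changed by 1.09 (adjusted p = 1.02e-05), so the genotype difference had opposite signs in the 2 cell states, and the interaction was -2.53 (adjusted p = 2.89e-07). Il6, the classic SASP cytokine, was at 2.93, 3.87 and 2.73 CPM in KO and 4.01, 4.92 and 4.63 CPM in WT libraries (-0.51 ± 0.16, adjusted p = 0.0247). It did not pass without KO replicate 1 or 3 or WT replicate 2 or 3 (-0.49 to -0.41). Tnfsf11, RANKL, fell (-0.83 ± 0.082). Lif rose by 0.70 ± 0.14 in senescent cells and was lower in control cells (-0.89, interaction 1.59, adjusted p = 0.000401). Csf1, a macrophage growth factor, was at 1058, 1040 and 1141 CPM in KO and 820.0, 798 and 829.7 CPM in WT libraries (0.40 ± 0.11, adjusted p = 0.0163). Csf1 did not pass without KO replicate 3 (0.36, adjusted p = 0.0883) or without WT replicate 2 (0.39, adjusted p = 0.0582).

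Growth factors and their binding proteins rose more often than they fell, with 17 of 40 higher, 7 lower and a median of 0.21. The shares were 42.5% and 17.5%, against 11.9% and 11.8% of all genes tested. Without WT senescent replicate 3 the count that rose was 11. Grem1, an antagonist of bone morphogenetic proteins (BMPs), was at 2220, 1959 and 2075 CPM in KO and 1051, 896 and 907 CPM in WT libraries (1.13 ± 0.074, adjusted p = 8.54e-09). Bmp2, a ligand of that pathway, rose by 1.29 ± 0.21. Igfbp7 was at 214, 227 and 242 CPM in KO and 109.7, 105 and 94.5 CPM in WT libraries (1.14 ± 0.07, adjusted p = 8.13e-10), while Igfbp5 fell (-1.91 ± 0.37). Fgf10, a ligand for epithelial cells, and Inhba, a chain of activin, rose by 0.98 ± 0.11 and 0.61 ± 0.073.

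Genes of proteolysis at the cell surface rose in part. Of 10 TIMPs and members of the plasminogen system 7 rose and 2 fell, with a median of 0.41. Plat, tissue plasminogen activator, was at 96.8, 92.6 and 94.4 CPM in KO and 38.9, 37.3 and 32.4 CPM in WT libraries (1.38 ± 0.072, adjusted p = 4.21e-11), and it rose in control cells too (1.39). Plau, urokinase, rose by 0.86 ± 0.15. The protease inhibitors Timp1 and Timp2 rose by 0.54 ± 0.067 and 0.37 ± 0.052, and Timp4 fell (-1.71 ± 0.27). Timp3, the other that fell (-0.42), kept its call only without KO replicate 2 among the fits that left out a library (-0.44 to -0.34 where lost). Of 15 matrix metalloproteinases 5 rose and 1 fell (33.3% and 6.67%, against 11.9% and 11.8% of all genes tested). The 1 that fell, Mmp23, did not pass without WT replicate 3. Mmp3, stromelysin, was at 194, 187 and 190.0 CPM in KO and 113, 111 and 106 CPM in WT libraries (0.79 ± 0.068, adjusted p = 5.79e-08). Mmp9, a gelatinase, was at 5.25, 4.11 and 3.88 CPM and 1.91, 2.32 and 1.35 CPM (1.24 ± 0.23, adjusted p = 0.000427). Mmp2, Mmp14 and Mmp13 had changes of 0.069, -0.025 and 0.47 and did not pass. Of 17 ADAMTS proteases 4 rose and 5 fell (23.5% and 29.4%, against 11.9% and 11.8% of all genes tested). Adamts2, which trims procollagen, rose by 0.76 ± 0.074, and Adamts9 and Adamts15, which cleave proteoglycans, fell (-1.15 ± 0.16 and -1.80 ± 0.30).

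Genes of antigen presentation and complement were lower in KO senescent cells. Of 14 genes of MHC class I, 10 fell and none rose, with a median of -0.45. The heavy chain H2-K1 was at 128, 126 and 125 CPM in KO and 187, 185 and 172 CPM in WT libraries (-0.52 ± 0.052, adjusted p = 3.9e-07), and H2-D1 and the peptide loading protein Tapbp fell (-0.36 ± 0.056 and -0.56 ± 0.09). H2 heavy chains are similar in sequence, so their counts are uncertain. In control cells 3 of the 14 passed, all higher, and the interaction passed for 9, all negative. Of 10 complement genes 7 fell and 1 rose, Cd55 (0.40), which did not pass when any 1 of the senescent libraries was left out (0.36 to 0.45). C1ra was at 30.8, 37.6 and 29.1 CPM in KO and 57.5, 59.9 and 54.8 CPM in WT libraries (-0.82 ± 0.11, adjusted p = 3.42e-05), and C3, the central component, and Cfb, factor B, fell (-0.71 ± 0.14 and -0.93 ± 0.19).

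The count of interferon-stimulated genes that fell depended on single libraries and on the fit. Of 26 tested, 4 fell (Rsad2, Gbp2, Irf9 and Irf1), or 15.4% against 11.8% of all genes tested. None rose and 24 had a fitted change below 0, as had 9144 of all 17416 genes tested. Rsad2, the antiviral protein viperin, was at 0.81, 1.17 and 1.15 CPM in KO and 1.56, 7.54 and 2.74 CPM in WT libraries (-1.92 ± 0.48, adjusted p = 0.00983), with WT replicate 2 far above the others. Gbp2 overlapped between genotypes, at 11.6, 11.8 and 17.9 CPM in KO and 18.5, 25.7 and 16.9 CPM in WT libraries. On the scale of log2(CPM + 1), the list's median stood at -0.74 and -0.66 in KO replicates 1 and 2 and at 0.17 in KO replicate 3, relative to the WT senescent mean, and at 0.39 in WT replicate 2. With KO senescent replicate 3 left out, 19 of the 26 fell. Without WT senescent replicate 2 each of the 4 lost its call, with Rsad2 then at -1.03 (adjusted p = 0.0858). Without KO replicate 1 a single member passed, and without KO replicate 2 a pair did. With only the senescent libraries in the fit Rsad2, Gbp2 and Irf9 did not pass (adjusted p = 0.104, 0.160 and 0.0880). Irf1 did not pass by DESeq2, with DESeq2 size factors, with no filter on low counts or with GC and length offsets. Irf9 did not pass with those offsets either.

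Lipid and redox genes changed in part. Of 18 genes of cholesterol synthesis and uptake 11 rose and none fell, with a median of 0.25. Sqle, squalene epoxidase, was at 89.5, 86.6 and 104 CPM in KO and 66.8, 69 and 66 CPM in WT libraries (0.47 ± 0.063, adjusted p = 1.13e-05), and Cyp51, a demethylase of the same pathway, rose by 0.39 ± 0.053. In control cells 14 of the 18 were higher. Of 12 adipogenic genes 2 rose and 3 fell (16.7% and 25%, against 11.9% and 11.8% of all genes tested). Pparg, the master factor of adipocytes, was at 16, 16.4 and 14.5 CPM in KO and 34.7, 32.8 and 34.1 CPM in WT libraries (-1.12 ± 0.072, adjusted p = 9.2e-10), and Cebpd fell (-0.81 ± 0.079). Lpl, lipoprotein lipase, rose by 1.53 ± 0.20, less than in control cells (3.03, interaction -1.49, adjusted p = 0.00239). Of 15 genes of glutathione and the NRF2 response 4 rose and 3 fell (26.7% and 20%, against 11.9% and 11.8% of all genes tested). Gpx3, the secreted glutathione peroxidase, was at 183, 211 and 173 CPM in KO and 656, 682 and 731 CPM in WT libraries (-1.87 ± 0.13, adjusted p = 2.79e-06). Slc7a11, the cystine importer, rose by 0.97 ± 0.11 and had an interaction of 1.13 (adjusted p = 0.000107).

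Several signalling and stress lists showed small changes. All groups had received dexamethasone. Of 11 glucocorticoid targets 3 rose (27.3%, against 11.9% of all genes tested), among them Tsc22d3 (0.64 ± 0.15). Another 2 fell (18.2%, against 11.8%), Lcn2, lipocalin 2 (-1.34 ± 0.076) and Zbtb16 (-1.51 ± 0.23). With GC and length offsets 5 rose. Of 15 WNT antagonists and targets 3 rose (20%, against 11.9% of all genes tested), Dkk2, Nkd2 (0.91 ± 0.12) and Axin2 (0.53 ± 0.12). Another 2 fell (13.3%, against 11.8%), Frzb (-0.94 ± 0.13) and Sfrp5 (-2.01 ± 0.61). Sfrp5 did not pass without KO replicate 3 (-1.60, adjusted p = 0.0994) or WT replicate 3 (-1.91, adjusted p = 0.0591). Of 14 genes of the unfolded protein and amino acid response 7 rose and 2 fell (50% and 14.3%, against 11.9% and 11.8% of all genes tested). Of the 2 that fell, Pdia4 did not pass when any library but KO replicate 3 was left out. Chac1, Trib3, Asns and Atf4 rose by 0.70, 0.48, 0.30 and 0.27. Of 6 genes of the aryl hydrocarbon receptor 3 rose and 1 fell (50% and 16.7%, against 11.9% and 11.8%), with Tiparp at 0.74 ± 0.12. Hypoxia and glycolysis genes were balanced, 4 higher and 4 lower of 19 (21.1% each, against 11.9% and 11.8% of all genes tested), with Ldha at 0.19 ± 0.056. Of the 19, 2 were higher without KO replicate 3 or WT replicate 1 or 2. Of 15 genes of NAD metabolism and sirtuins 1 rose and 3 fell (6.67% and 20%, against 11.9% and 11.8% of all genes tested), and none of the 7 sirtuins passed. Of 36 positional factors, the HOX and related genes that mark a cell's body region, 4 rose and 4 fell (11.1% in each direction, near the 11.9% and 11.8% of all genes tested), with Hoxa2, which patterns the outer ear, at -0.85 ± 0.12. With only the senescent libraries in the fit 8 of them rose, and with GC and length offsets 7 did. Of 17 imprinted genes 4 rose (23.5%, against 11.9% of all genes tested). Another 2 fell, Mest and Dlk1 (-0.68), which is 11.8%, the same share as over all genes tested. The count that rose was 2 without any 1 of the WT replicates and 7 with GC and length offsets.

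AP-1 subunits were compared because the study examined AP-1 beside BMAL1. Of 14 tested, 5 rose and 4 fell (35.7% and 28.6%, against 11.9% and 11.8% of all genes tested), none as a DEG. Jun was at 189, 184 and 201 CPM in KO and 132, 128 and 126 CPM in WT libraries (0.57 ± 0.062, adjusted p = 1.04e-06). Maff was at 131, 139.6 and 150.1 CPM and 83.1, 78 and 80.2 CPM (0.80 ± 0.087, adjusted p = 6.83e-06), and Fosl1, Jund and Mafk rose by 0.64 ± 0.10, 0.30 ± 0.061 and 0.47 ± 0.062. Maf was at 39.7, 47.2 and 39.6 CPM in KO and 69.8, 78.3 and 74.4 CPM in WT libraries (-0.82 ± 0.083, adjusted p = 8.13e-07), and Fos fell (-0.97 ± 0.21). Jun, Maff and Maf were each without overlap between genotypes, as were 41.9% of all genes tested. In control cells the changes of these 3 were 0.047, -0.08 and -0.019, none of which passed, and their interactions were 0.53, 0.88 and -0.80, each with an adjusted p of at most 0.000319.

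The AP-1 site TGACTCA, with its reverse complement TGAGTCA, was then counted in the 250 bases before the start. It was found in 25 of the 145 DEGs higher in KO senescent cells that had a promoter entry (17.2%) and in 14 of 256 DEGs lower (5.47%). The share was 4.35% of 12041 genes tested with an entry and 5.16% of all 27025 genes with one. Over all genes that rose it was 6.65%, and over all that fell 4.49%. Among the DEGs of control cells it was 7.14% of 140 higher and 5.96% of 151 lower. Within the senescent DEGs higher it was 15.6% of the 32 that were control DEGs higher too and 17.7% of the other 113. Most of the 25 genes had a senescent mean under 5 CPM. F2rl2, Sprr2k, Gm35082 and Ctla2b were at 0.228, 0.268, 0.449 and 0.481 CPM, and F2rl2 was at 0 in every WT senescent library. The windows of Ctla2a and Ctla2b are similar in sequence, so the genes are not all independent. The median GC content of the window was 55.6% in both sets of senescent DEGs and 59.6% over all genes tested. No clock gene and no cartilage gene with an entry held the site. These are counts of letters in a window and no measure of binding, and the motif was counted with results of these data known.

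The windows below belong to the 5 DEGs with the site that rose most once the senescent mean reached 5 CPM, and to Adam19, the DEG of the 25 with the highest level, a choice made after their values were seen. They are Wnt5b, Gldn, 3300005D01Rik, Sprr1a, a protein of the cornified envelope, and Upp1, uridine phosphorylase. Capitals mark the site, and the sequences run 5′ to 3′ on the gene's strand (RefSeq, GRCm38.p6).
Wnt5b (chr6:119544348-119544597, minus strand): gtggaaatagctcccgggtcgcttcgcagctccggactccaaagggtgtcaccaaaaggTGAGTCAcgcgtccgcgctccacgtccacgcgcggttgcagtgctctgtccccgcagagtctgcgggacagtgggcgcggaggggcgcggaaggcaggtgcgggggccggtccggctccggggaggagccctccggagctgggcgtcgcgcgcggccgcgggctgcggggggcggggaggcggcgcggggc
Gldn (chr9:54286236-54286485, plus strand): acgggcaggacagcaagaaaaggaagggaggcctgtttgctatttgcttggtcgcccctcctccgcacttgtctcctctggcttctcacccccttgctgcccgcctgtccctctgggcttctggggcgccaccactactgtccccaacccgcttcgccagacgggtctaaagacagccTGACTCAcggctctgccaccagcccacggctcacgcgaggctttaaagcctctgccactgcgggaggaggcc
3300005D01Rik (chr17:5798407-5798656, plus strand): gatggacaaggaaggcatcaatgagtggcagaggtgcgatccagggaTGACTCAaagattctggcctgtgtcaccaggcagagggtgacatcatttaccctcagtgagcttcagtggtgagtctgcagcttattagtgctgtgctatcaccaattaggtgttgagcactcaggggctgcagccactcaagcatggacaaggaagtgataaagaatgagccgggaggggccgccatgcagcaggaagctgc
Sprr1a (chr3:92485882-92486131, minus strand): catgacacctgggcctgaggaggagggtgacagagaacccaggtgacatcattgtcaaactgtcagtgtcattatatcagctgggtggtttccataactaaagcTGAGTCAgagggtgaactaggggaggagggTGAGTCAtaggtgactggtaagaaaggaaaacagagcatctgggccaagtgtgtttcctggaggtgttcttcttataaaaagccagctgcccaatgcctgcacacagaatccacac
Upp1 (chr11:9117758-9118007, plus strand): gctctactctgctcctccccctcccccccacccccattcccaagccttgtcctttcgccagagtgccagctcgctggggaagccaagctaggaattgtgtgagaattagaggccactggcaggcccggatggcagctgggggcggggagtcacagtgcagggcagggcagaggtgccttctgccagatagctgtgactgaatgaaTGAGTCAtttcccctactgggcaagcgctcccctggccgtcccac
Adam19 (chr11:46055734-46055983, plus strand): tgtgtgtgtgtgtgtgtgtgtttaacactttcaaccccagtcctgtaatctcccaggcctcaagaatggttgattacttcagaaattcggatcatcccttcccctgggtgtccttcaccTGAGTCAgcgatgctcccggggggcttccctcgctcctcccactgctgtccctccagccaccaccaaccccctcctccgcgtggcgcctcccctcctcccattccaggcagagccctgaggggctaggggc

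Sprr1a holds 2 copies of the site, 146 and 116 bases before the start, and Upp1 holds it 45 bases before the start. Sprr1a was at 13.8, 11.4 and 16.4 CPM in KO and 5.31, 4.14 and 4.59 CPM in WT libraries (1.57 ± 0.20, adjusted p = 6.08e-06). Upp1 was at 8.26, 7.48 and 12.6 CPM and 3.84, 2.79 and 3.16 CPM (1.53 ± 0.20, adjusted p = 9.6e-06), with KO replicate 3 the highest. Adam19, a membrane protease, was at 115, 106 and 104 CPM in KO and 45, 41.5 and 41.9 CPM in WT libraries (1.34 ± 0.072, adjusted p = 1.45e-10). In control cells Sprr1a and Upp1 changed by -0.55 and 0.066 and did not pass, and their interactions were 2.12 (adjusted p = 0.0127) and 1.47 (adjusted p = 0.00128). Gldn rose in control cells too (2.02), and 3300005D01Rik, at 1.84 ± 0.19 in senescent cells, changed there by 0.30, which did not pass.

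Survival genes were compared because senescent cells resist apoptosis. Of 6 pro-survival BCL-2 genes tested 2 rose (33.3%, against 11.9% of all genes tested), Bcl2l2 (0.35 ± 0.057) and Mcl1 (0.19 ± 0.054). The 1 that fell (16.7%, against 11.8%) was Bcl2a1b. At no more than 0.68 CPM in any senescent library, Bcl2a1b rests on few counts. It did not pass when any library but WT replicate 3 was left out (-1.93 to -1.13). Bcl2l2, which codes for BCL-W, was at 103, 103 and 113 CPM in KO and 87.4, 81.3 and 80.5 CPM in WT libraries. Bcl2 (0.21) and Bcl2l1, BCL-XL (-0.0043), did not pass. Of 9 pro-apoptotic genes 4 rose and 1 fell (44.4% and 11.1%, against 11.9% and 11.8% of all genes tested). Pmaip1, NOXA, was at 40.1, 41.5 and 43.9 CPM in KO and 27.5, 26.8 and 25.9 CPM in WT libraries (0.65 ± 0.084, adjusted p = 9.27e-06). Bmf, a BH3-only protein, fell (-1.04 ± 0.28) and did not pass without KO replicate 1 (-1.03) or 3 (-0.82) or WT replicate 2 (-0.997). Without KO senescent replicate 3 or WT senescent replicate 2 only 1 of the pro-apoptotic genes rose, and without KO replicate 2 or WT replicate 3 it was 2.

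Receptors of inflammation were mixed. Of 13 TNF receptors 4 rose and 4 fell (30.8% each, against 11.9% and 11.8% of all genes tested). The decoy receptors Tnfrsf22 and Tnfrsf23 rose by 0.69 ± 0.083 and 0.62 ± 0.077, Tnfrsf12a, the receptor of TWEAK, by 0.50 ± 0.096, and Tnfrsf11b, osteoprotegerin, fell (-0.55 ± 0.068). Of 14 Toll-like receptors and adaptors none rose and 4 fell (28.6%, against 11.8% of all genes tested). Of the 4, Tlr9 and Tlr1 were under 3 CPM in every senescent library. Without KO senescent replicate 2 or WT senescent replicate 2 only 1 fell, and without KO replicate 3 it was 2. With GC and length offsets 3 members rose, Tlr4, Tlr5 and Tirap, and with only the senescent libraries in the fit Tlr4 and Tlr5 did. Tlr4 was at 63.5, 61 and 57.5 CPM in KO and 54.9, 55.1 and 52.6 CPM in WT libraries and did not pass (0.16 ± 0.067, adjusted p = 0.0882), though it passed under 4 of the alternatives run. Of 12 NF-kB genes 4 rose and 2 fell (33.3% and 16.7%, against 11.9% and 11.8% of all genes tested), with Tnfaip3, the inhibitor A20, at 0.53 ± 0.17. Without KO senescent replicate 3 only 1 of them rose, and without WT replicate 3 it was 2. Tnfaip3 passed without KO replicate 2 or WT replicate 2 but not without any other 1 of the libraries (0.40 to 0.58), and 1 of the genes that fell, Nfkb1, did not pass without KO replicate 2 or WT replicate 3.

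A list of genes that the study singled out on these libraries was also read, so its direction here is not independent evidence. The study drew the list from genes that differed between senescent and control cells in the KO but not in the WT genotype. The values here compare KO with WT senescent cells, so the directions belong to different groups. The interaction, which is closer to the study's choice, passed for 3 of the 6 listed as higher, all positive. It passed for 6 of the 7 listed as lower, all negative. Of 6 listed as higher 2 rose, Csf1 and Pou3f1 (1.63 ± 0.43), and of 7 listed as lower 6 fell. Pou3f1 did not pass without WT replicate 2 (1.39, adjusted p = 0.0593), nor did Mmp23 without WT replicate 3 (-0.22, adjusted p = 0.0813). Smoc2, a matrix protein, was at 86, 97.4 and 69.4 CPM in KO and 251, 277 and 286 CPM in WT libraries (-1.69 ± 0.13, adjusted p = 5.08e-06). Sox9, Adamts9 and Adamts15 were the other DEGs, and Smoc1 and Mmp23 fell (-0.43 and -0.28). Alox12 (-0.12), Mmp17 (0.10), Tnfrsf26 (0.50) and Pou4f1 (0.80) did not pass, though Tnfrsf26 passed under 5 of the alternatives run. With only the senescent libraries in the fit or with GC and length offsets 4 of the 6 rose.

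Markers of fibroblasts and of other cells of the ear were measured in the same libraries. The 10 fibroblast markers summed to 38700 to 46400 CPM in KO and 46000 to 48300 CPM in WT libraries. Thy1 was at 377, 405 and 393 CPM in KO and 224, 216 and 206 CPM in WT libraries (0.86 ± 0.056), while Pdgfra fell (-0.71 ± 0.065) and Vim did not pass (0.039). Summed levels in KO and WT senescent libraries were 23.4 to 27.2 and 26.0 to 32.1 CPM for 7 keratinocyte markers, 9.83 to 15.2 and 13.4 to 16.1 CPM for 6 macrophage markers and 2.84 to 4.36 and 2.63 to 3.20 CPM for 6 melanocyte markers. They were 5.37 to 8.57 and 6.37 to 7.35 CPM for 5 endothelial, 12.8 to 20.9 and 13.4 to 14.9 CPM for 6 skeletal muscle and 15.9 to 19.7 and 16.4 to 23.2 CPM for 5 adipocyte markers. Myf5 and Lep were at 0 in every senescent library. Schwann cell markers (4) were at 17.8 to 19.1 CPM in KO and 36.6 to 39.8 CPM in WT libraries, and Cdh19 and S100b fell (-2.29 and -0.79). Of 5 keratinocyte markers tested 1 rose, Dsp, and 1 fell, Trp63 (-1.57 ± 0.14), which was at 9.76, 10.8 and 9.53 CPM in WT libraries. Dsp did not pass without KO replicate 2 (0.72) or WT replicate 2 (0.53). Of 4 macrophage markers tested 1 fell, Cd68, which lost its call when any library but KO replicate 1 was left out (-0.67 to -0.53). The part of other cell types in the results was not tested.

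The study's methods describe female donors of the WT cells. The Y-linked genes Kdm5d and Uty were nevertheless counted in all 12 libraries, at 33, 31.1 and 29.6 CPM and 25.8, 27.4 and 25.5 CPM in KO senescent and 39.2, 39.7 and 38.9 CPM and 35.9, 32.2 and 32.9 CPM in WT senescent libraries, and both fell in KO senescent cells (-0.33 and -0.36). Of 4 Y-linked genes tested 2 fell.

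The region around the deleted gene was examined apart. Within 10 Mb of Arntl on chromosome 7, 50 of 170 other genes passed (29.4%), against 21.3% on the rest of the chromosome and 23.9% on all others. DEGs were 12 (7.06%), against 3.39% and 3.44%. Trim12a, of a cluster of antiviral TRIM genes, was at 6.21, 6.35 and 7.77 CPM in KO and 16.6, 20.3 and 17.4 CPM in WT libraries. Trim5, Trim30a and Trim30d were lower too (-2.60, -1.54 and -1.66) and Trim34b was higher (2.22). These copies are similar in sequence, so their counts are uncertain. Syt17, 5.15 Mb away, was at 38.1, 38.9 and 39.8 CPM in KO and 18.7, 16.5 and 16.8 CPM in WT libraries and rose in control cells too (1.13). Sox6, the cartilage factor, lies 2.49 Mb away and was at 39.2, 40.8 and 30.8 CPM and 76.2, 83.4 and 79.4 CPM, with a control change of 0.049 that did not pass. The part of the position on the chromosome in these changes was not tested.

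**Figure D5:**
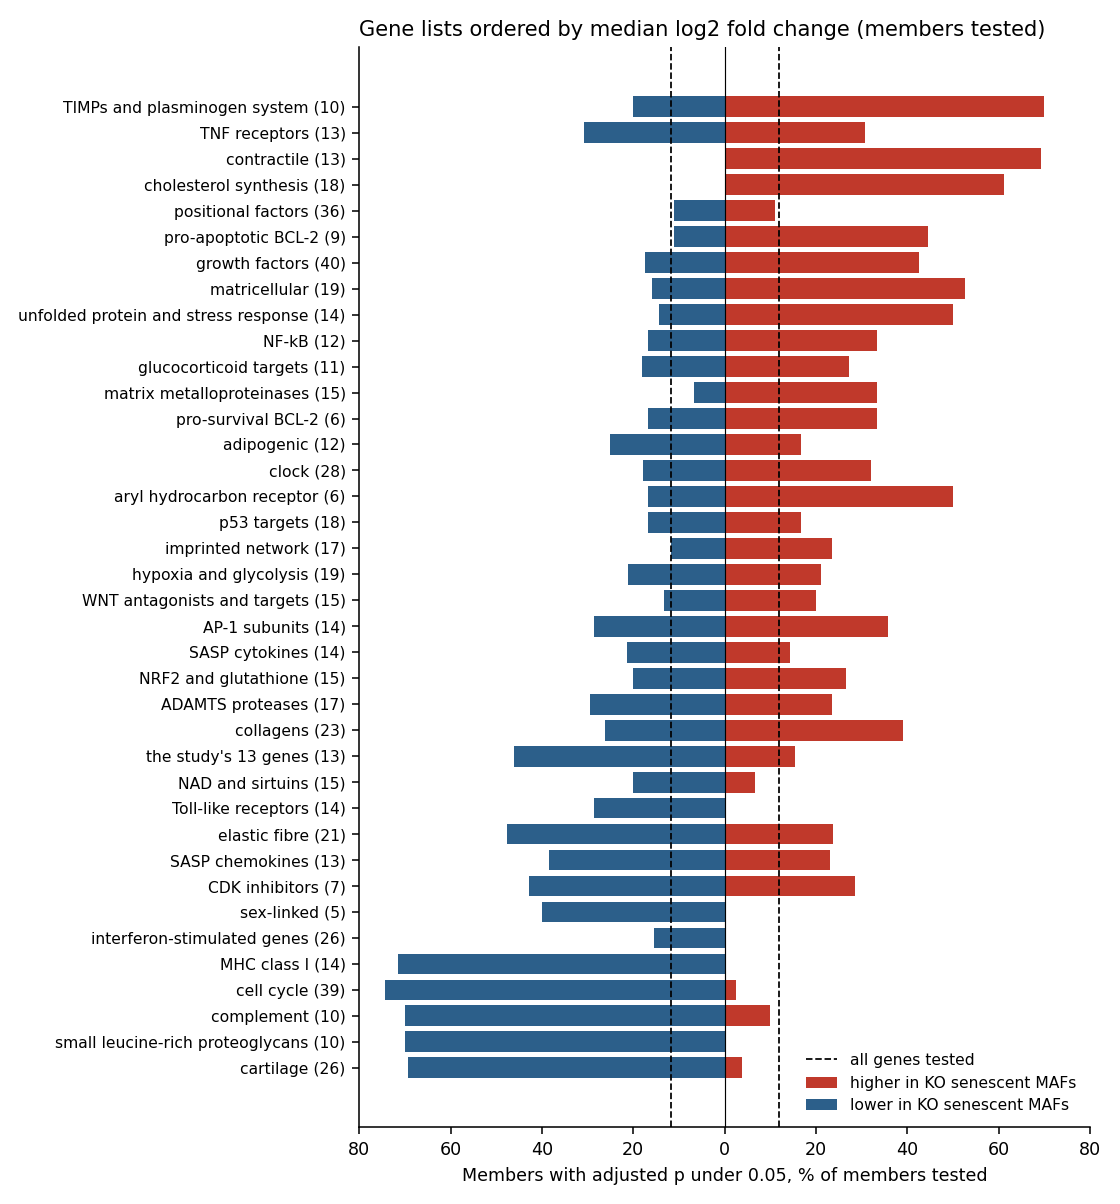
Share of the tested members of each gene list that rose (red, to the right) or fell (blue, to the left) in KO senescent MAFs with adjusted p under 0.05, ordered by median log2 fold change, with the number of members tested in parentheses. Dashed lines mark the 11.9% and 11.8% of all genes tested; cartilage, proteoglycan, complement, cell cycle and MHC class I genes reach farthest left, and TIMP and plasminogen, contractile and cholesterol genes farthest right.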

How the data were processed

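RNA-seq libraries were made with oligo(dT) selection and the NEBNext Ultra II kit and sequenced in pairs on a HiSeq. The authors demultiplexed reads with bcl2fastq (version 2.17), trimmed them with Trimmomatic (version 0.36), aligned them to GRCm38 with STAR (version 2.5.2b) and counted unique reads in exons with featureCounts. The deposited values are raw counts per gene, and the strand setting and annotation release are not given in the sources used here. The KO and WT tables were joined by gene identifier. Positions and gene types were taken from GENCODE M21 (GRCm38) for 49056 of 49315 identifiers.

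Counts of all 12 libraries were fitted with edgeR (version 4.0.16, R version 4.3.3) by the quasi-likelihood test on TMM-scaled totals, with 1 mean per group, after edgeR's default filter on low counts (17416 genes). P-values were adjusted by Benjamini-Hochberg over all genes tested. The interaction is the senescent genotype difference less the control one, and CPM was computed from the same totals. A count of 0 in a senescent or control library allows up to 0.101 to 0.135 CPM (3 counts), for counting error only. The procedure was tested on simulated data.

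The members and gene lists were chosen with earlier results of these data known. Genes named were the clock genes, the 12 most changed DEGs of each direction whose senescent mean reached 5 CPM and whose genotypes did not overlap, up to 4 members of each other list by lowest p, fibroblast markers, and the genes the study singled out. Some genes that met this rule are not reported here. Other list members, those near Arntl and the genes with an AP-1 site were named after their values were seen. Alternatives were DESeq2 (version 1.42.0), other scaling and filters, glmTreat, GC and length offsets, a replicate block and leaving out each library.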

Additional observations from a re-analysis of the deposited data

Results flagged for a closer look

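Values here are the genotype difference (log2 fold change, KO against WT) in senescent cells less that in control cells, from edgeR's interaction test, for the genes chosen by the naming rule whose interaction passed and was over 1 in size. Groups of 3 libraries are too small for the test of a single outlying sample. Many of these genes were chosen by their change in senescent libraries, which the interaction also uses.

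Matrix genes below 0 were named from several lists, so their number reflects the naming too. Among cartilage genes the values were -2.46 for Cnmd, -2.14 for Col9a1, -1.70 for Col27a1, -1.57 for Acan, -1.38 for Sox9 and -1.25 for Hapln1. Among the proteoglycans they were -1.68 for Ogn, -1.65 for Aspn, -1.32 for Ecm2 and -1.15 for Lum, and Smoc2 was at -1.68. The proteases Adamts15 and Adamts9 were at -2.94 and -1.40, and the inhibitor Timp4 at -1.22. Adamts15 was higher in KO control cells (1.15) and lower in KO senescent cells (-1.80).

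Immune genes below 0 were Rsad2 at -3.65, Il1rn at -2.53, Tlr1 at -1.42, the complement inhibitor Serping1 at -1.19, Gbp2 at -1.02 and Cxcl12 at -1.002. Of genes of survival, Bcl2a1b was at -2.98 and Bmf at -1.38. Rsad2, Gbp2, Tlr1, Bcl2a1b and Bmf lost their call in senescent cells when single libraries were left out. Of the NAD enzymes, Cd38 was at -1.17 and Naprt at -1.001. The clock genes Dbp and Per2 were at -1.11 and -1.08.

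Other genes with the largest falls in senescent cells were Fgg at -2.48, Ppp1r1b at -2.38, Myoc at -2.22, Cdh19 at -2.0, Rab11fip4 at -1.78, Faah at -1.76, Mest at -1.58 and Fxyd3 at -1.37. Trp63 was at -1.61, Lpl at -1.49 and Hoxa2 at -1.15.

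Above 0 were Pou4f1 at 2.499, Mmp24 at 2.40, Nrcam at 2.02, Lif at 1.59, Mmp9 at 1.48, Cdkn2a at 1.36, Tiparp at 1.24, Slc7a11 at 1.13, Acta1 at 1.08, Loxl2 at 1.05 and Stmn2 at 1.05. Mmp24, a membrane-bound metalloproteinase, was lower in KO control cells (-1.28) and higher in KO senescent cells (1.12). Pou4f1 and Acta1 did not pass within senescent cells (0.80 and 0.20).

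Genes named in the text outside that rule had values of the same kind. Below 0 were Matn3 at -2.36, Col14a1 at -2.06, Col11a2 at -1.67, Sox5 at -1.33, Col4a6 at -1.28, Col11a1 at -1.17 and Sox6 at -1.16, and of the TRIM genes near Arntl, Trim30d was at -2.10, Trim5 at -1.95 and Trim30a at -1.54. Above 0 were Sprr1a at 2.12, 3300005D01Rik at 1.55, Upp1 at 1.47 and Fosl1 at 1.11.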

How the results depend on the processing

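The counts that follow cover the genes chosen by the naming rule. They leave out glmTreat and the values to which DESeq2 gave no adjusted p. Of 2568 recomputed values of the 184 genes that passed, 2462 kept their direction and their call. Another 106 lost the call and none reversed, over 29 genes with a change. Of 27 genes chosen by that rule that did not pass, 3 (Tlr4, Tnfrsf26 and Col3a1) passed under some alternatives. Genes named outside the rule are not in these counts, though calls of some changed too, such as Cdkn1a, Runx2, Il6 and Mki67. The senescent DEGs were 193 higher and 328 lower by DESeq2, 263 and 385 with only the senescent libraries in the fit, and 193 to 243 higher and 302 to 445 lower when single libraries were left out. A test against a change of 1 on the log2 scale (glmTreat) left 36 higher and 52 lower in senescent cells, 55 higher and 8 lower in control cells, and 5 higher and 15 lower for the interaction. It asks for a change beyond that size, not only for an estimate beyond it. The control DEGs lower, 205, became 95 with only the control libraries in the fit and 320 with no filter on low counts. Leaving out single libraries gave 86 to 542 of them, the highest without WT control replicate 3, and 134 to 346 interaction DEGs higher against 200, the highest again without that library. The cause was not tested. Same-numbered KO and WT senescent libraries did not deviate together (r = 0.0758, -0.00892 and -0.00528) and KO replicates 2 and 3 correlated best with another number. The replicate block gave 226 DEGs higher and 376 lower, 236 and 213 in control cells and 193 and 438 for the interaction. Genes under about 1 CPM, such as Bcl2a1b and Tlr9, are limited by depth.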
